A study of Mus musculus with 29 samples.

Results

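Genes that move sodium, chloride or protons across the uterine epithelium, 8 in all, were followed through early pregnancy in mice given genistein or corn oil as newborns. They were the epithelial sodium channel subunits Scnn1a, Scnn1b and Scnn1g, the sodium pump regulators Fxyd3 and Fxyd4, the chloride channels Cftr and Clcn2, and the proton pump subunit Atp6v1c2. They were chosen by name with earlier results of these data in view, as every non-control probe whose gene name or current symbol is 1 of the 8, which gave 11 of 41174 probes and 8 of 27670 gene names. The samples were uteri of CD-1 mice, 29 in all, each on 1 single-colour array. The GEN mice had received genistein, a soy isoflavone that binds estrogen receptors, at 50 mg/kg per day on postnatal days 1 to 5, and the CON mice corn oil on the same days. Uteri were taken on gestation day (GD) 1.5 (4 GEN and 3 CON arrays), GD3.5 (3 and 3), GD4.5 (4 and 4) and GD5.5 (4 and 4). Their levels on these same arrays were known when they were chosen, so the adjusted p-values below describe these genes and are no independent evidence. No label says that each array was a separate animal, so p-values measure the spread between these arrays.

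The fluid in the uterine lumen is secreted and taken up by the epithelium that lines it. Chloride leaving the cells through CFTR draws water into the lumen under estrogen, whereas sodium entering through the epithelial sodium channel, a complex of alpha, beta and gamma subunits, draws fluid out, and the lumen closes around the embryo before it attaches. FXYD proteins are small membrane partners that tune the Na,K-ATPase, and V-ATPases pump protons. The whole uterus was measured, so fewer epithelial cells and less RNA per epithelial cell cannot be told apart.

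A level below is the log2 intensity of the brightest probe of a gene minus the array's 75th percentile, so that 0 is a spot at that percentile, and a difference of 1 is a factor of 2 in intensity. Levels of different genes are from different probes and were not set against each other. GD1.5 and GD3.5 arrays shared slides, as did GD4.5 and GD5.5 arrays, but no slide joined the pairs, so no test was made between GD3.5 and GD4.5. The authors' scanner files put 65.5 to 80.9% of spots per array well above background, with the 75th percentile of intensity at 1490 to 1840 on the earlier slides and 734 to 995 on the later ones. Fxyd3, Fxyd4, Scnn1a, Scnn1b, Cftr and Clcn2 were well above background on all 29 arrays, Scnn1g on 23 and Atp6v1c2 on 22. In each of the 8 groups all 12 listed markers of simple epithelium were well above background on at least 1 array. A gene was called where limma's adjusted p (Benjamini-Hochberg over all genes tested) was under 0.05.

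To show what lies in front of the genes that differed together, the 250 bases before the RefSeq start site (build GRCm38.p6, 5′ to 3′ along the gene) are given for Clcn2 (chr16:20716637-20716886, minus strand), Atp6v1c2 (chr12:17324731-17324980, minus strand) and Fxyd3 (chr7:31076698-31076947, minus strand), which were lower in GEN uteri on the average of the days, and for Fxyd4 (chr6:117937336-117937585, minus strand) and Scnn1b (chr7:121864788-121865037, plus strand), which with Fxyd3 were lower at GD5.5 than at GD4.5 in CON uteri. Capitals mark the motifs found.
Clcn2: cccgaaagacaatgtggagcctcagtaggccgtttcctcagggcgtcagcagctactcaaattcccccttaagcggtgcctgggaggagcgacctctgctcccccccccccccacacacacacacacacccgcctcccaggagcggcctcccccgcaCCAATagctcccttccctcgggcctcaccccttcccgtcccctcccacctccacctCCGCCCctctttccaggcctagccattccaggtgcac
Atp6v1c2: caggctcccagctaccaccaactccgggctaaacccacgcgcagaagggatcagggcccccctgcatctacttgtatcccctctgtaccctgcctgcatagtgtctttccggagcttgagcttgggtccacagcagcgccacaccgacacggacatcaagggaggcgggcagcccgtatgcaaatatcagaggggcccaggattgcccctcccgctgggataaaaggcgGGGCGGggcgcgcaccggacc
Fxyd3: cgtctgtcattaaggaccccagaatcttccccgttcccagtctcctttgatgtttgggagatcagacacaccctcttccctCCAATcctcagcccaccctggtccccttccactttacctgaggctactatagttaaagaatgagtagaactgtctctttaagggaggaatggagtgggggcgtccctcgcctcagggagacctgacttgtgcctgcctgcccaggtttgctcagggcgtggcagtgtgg
Fxyd4: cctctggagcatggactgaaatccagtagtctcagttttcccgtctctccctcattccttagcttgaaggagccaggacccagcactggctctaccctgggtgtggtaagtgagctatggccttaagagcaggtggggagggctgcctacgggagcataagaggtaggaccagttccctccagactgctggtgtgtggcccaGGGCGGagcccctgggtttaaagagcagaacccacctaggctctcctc
Scnn1b: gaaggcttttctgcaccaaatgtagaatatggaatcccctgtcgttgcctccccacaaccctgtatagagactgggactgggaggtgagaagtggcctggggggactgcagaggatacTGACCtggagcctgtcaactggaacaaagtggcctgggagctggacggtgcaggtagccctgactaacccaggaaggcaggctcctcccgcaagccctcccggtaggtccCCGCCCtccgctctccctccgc
Both strands were searched for 13 motifs. Those of steroid receptors were the estrogen response element GGTCANNNTGACC, its half-site GGTCA, and the half-site of progesterone and glucocorticoid receptors, TGTTCT. The others were the forkhead site in the form TGTTTAC and in a further form written TGTTTGC, the AP-1 site TGANTCA, the C/EBP site TTGCNNNAA, the GC box GGGCGG, the TATA box searched as TATAAA, the CCAAT box searched as those letters, the E2F site TTTCCCGC, the GATA factor site AGATAA and the cAMP response element TGACGTCA. The half-site GGTCA overlaps the full element. In these 5 promoters the GC box was found in those of Clcn2, Atp6v1c2, Fxyd4 and Scnn1b, the CCAAT box in those of Clcn2 and Fxyd3, and the estrogen half-site in that of Scnn1b. Over all 32851 promoter windows of this length the GC box was present in 32.7%, the CCAAT box in 33.8% and the half-site in 35.2%. Of the 13 motifs, 10 had no match in the promoters of the 7 genes present in the table. These letters are a description of the window only.

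**Figure D1:**
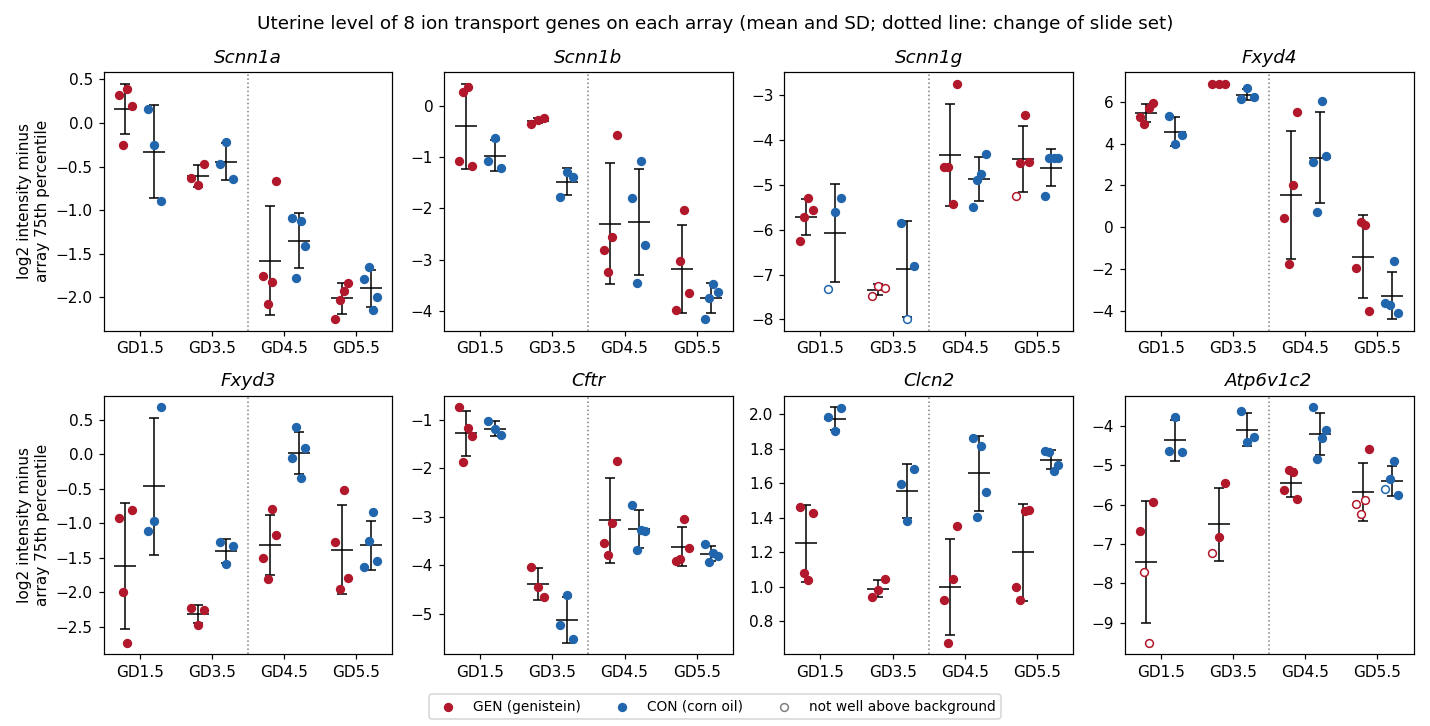
Level of each gene on every array (log2 intensity minus the array's 75th percentile) by gestation day, GEN in red left of CON in blue, with the mean and SD of each group; open points were not well above background and the dotted line marks the change of slides. Clcn2 is lower on every GEN array than on any CON array of the same day, Cftr is low at GD3.5 in both exposures, and Fxyd4 spreads widely at GD4.5.

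Genistein exposure was accompanied by lower Clcn2 and Atp6v1c2, and by Fxyd3 less firmly, when GEN and CON uteri were compared over the 4 days with equal weight. The 3 channel subunits, Fxyd4 and Cftr did not pass the test in that comparison. On the average, 3 of the 8 genes were called, all lower in GEN uteri, where 0.698% of the 23338 genes tested were called lower and 1.04% were called in either direction. The median difference of the 8 was 0.08 (log2), against -0.02 over all genes.

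Clcn2 encodes a chloride channel of epithelial membranes that opens on hyperpolarisation. Its level was 1.46, 1.08, 1.04 and 1.43 on the GEN arrays at GD1.5, against 1.98, 1.90 and 2.04 on the CON arrays. At GD3.5 it was 0.94, 0.98 and 1.04 in GEN uteri, against 1.59, 1.38 and 1.68 in CON uteri. The groups were apart on both days, with CON uteri higher. At GD4.5 it was 0.92, 0.68, 1.05 and 1.35 in GEN uteri, against 1.86, 1.41, 1.81 and 1.55 in CON uteri. At GD5.5 it was 1.00, 0.92, 1.44 and 1.45 in GEN uteri, against 1.78, 1.78, 1.67 and 1.71 in CON uteri. No GEN array reached the lowest CON array of its day on any of the 4 days, although the gap was narrow at GD4.5. The average difference was -0.62 (SE 0.08, limma adjusted p = 1.02e-04), which is 1.54-fold lower in GEN uteri, and it was called without any of the 29 arrays in turn.

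By day the Clcn2 difference was -0.72, -0.56, -0.66 and -0.54 from GD1.5 to GD5.5, and no single day was called (limma adjusted p = 0.0842, 0.284, 0.0571 and 0.409). Leaving out GEN 4 or CON 2 at GD4.5 brought that day under the threshold (limma adjusted p = 0.0157 and 0.0353), as did leaving out GEN 4 at GD5.5 for that day (0.0424). On single slides with GEN and CON arrays of 1 day, the GEN mean minus the CON mean was negative on 2 of 2 slides at GD1.5 (-0.93 and -0.90), 2 of 2 at GD3.5 (-0.65 and -0.34), 3 of 3 at GD4.5 (-1.14 to -0.50) and 3 of 3 at GD5.5 (-0.86 to -0.26). The second Clcn2 probe, which the design places on the same chromosome 16 stretch of build NCBI35, gave an average difference of -0.65 (SE 0.08). Of 23338 genes, 7 had every GEN array below every CON array on all 4 days and 1 had every GEN array above. Clcn2 was 1 of the 7.

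Atp6v1c2 encodes a C subunit isoform of the proton pump's cytosolic part. At GD1.5 its level was -6.67, -7.71, -9.50 and -5.94 in GEN uteri, against -4.65, -3.77 and -4.68 in CON uteri. At GD3.5 it was -7.22, -6.81 and -5.46 in GEN uteri, against -3.63, -4.40 and -4.28 in CON uteri. The exposures were well apart on these days, and 3 of the 7 GEN arrays were not well above background. At GD4.5 it was -5.62, -5.13, -5.17 and -5.86 in GEN uteri, against -3.53, -4.83, -4.32 and -4.12 in CON uteri. At GD5.5 it was -5.99, -6.23, -5.87 and -4.59 in GEN uteri, against -5.61, -5.34, -4.89 and -5.75 in CON uteri. The groups were still apart at GD4.5 and overlapped at GD5.5, when 1 GEN and 3 CON arrays were well above background. The average difference was -1.75 (SE 0.28, limma adjusted p = 0.00155), a 3.37-fold lower level in GEN uteri.

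The Atp6v1c2 difference was -3.09 at GD1.5 (SE 0.58, limma adjusted p = 0.0287), -2.39 at GD3.5, -1.25 at GD4.5 and -0.27 at GD5.5, and it was called at GD1.5 only, where 1 of the 8 genes was called, against 0.0975% of all genes in either direction and 0.0732% lower. The call at GD1.5 was lost without any 1 of the 3 CON arrays (limma adjusted p = 0.0598 to 0.292) or without GEN 2 (0.115) or GEN 3 (0.0635) of that day. The shrinking from day to day was not itself called: the effect at GD3.5 minus that at GD1.5 was 0.70 (SE 0.85, limma adjusted p = 1.00), and the effect at GD5.5 minus that at GD4.5 was 0.97 (SE 0.76, limma adjusted p = 0.793). Within slides, GEN minus CON ran from -5.28 to -3.06 on 2 slides at GD1.5, from -3.60 to -1.06 on 2 at GD3.5, from -2.21 to -0.81 on 3 at GD4.5 and from -0.88 to 1.16 on 3 at GD5.5. The probe is dim and its size depends on the background: with normexp correction refitted without spots of high local background, an alternative added after seeing the data, the average difference was -0.63 (limma adjusted p = 2.45e-04), and with plain normexp it was -0.33 (limma adjusted p = 0.471). At GD1.5 these corrections gave -0.92 (limma adjusted p = 0.0308) and -0.99 (0.647).

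Fxyd3, also called Mat-8, modulates the Na,K-ATPase. Its probe is shown because the array design spreads its 60 bases over 850 bases of chromosome 7 (28011126 to 28011975, build NCBI35, minus strand), so it reads spliced RNA.
Fxyd3 probe: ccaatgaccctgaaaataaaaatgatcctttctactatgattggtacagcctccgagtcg
The level at GD1.5 was -0.92, -2.0, -2.73 and -0.81 in GEN uteri, against -1.11, -0.96 and 0.68 in CON uteri. At GD3.5 it was -2.23, -2.47 and -2.26 in GEN uteri, against -1.27, -1.59 and -1.33 in CON uteri. The arrays overlapped at GD1.5 and were apart at GD3.5. At GD4.5 it was -1.50, -1.80, -0.79 and -1.16 in GEN uteri, against -0.06, 0.39, -0.34 and 0.09 in CON uteri. At GD5.5 it was -1.27, -1.95, -0.52 and -1.79 in GEN uteri, against -1.63, -1.26, -0.84 and -1.54 in CON uteri. The groups were apart at GD4.5 and intermixed at GD5.5. The average difference was -0.87 (SE 0.21, limma adjusted p = 0.0431), a 1.83-fold lower level in GEN uteri.

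That call for Fxyd3 was at the edge: it held in 8 of the 29 fits that each left out 1 array (limma adjusted p = 0.0211 to 0.0887), and with slide as a block it was -0.91 (limma adjusted p = 0.0662). It was also lost with plain normexp (-0.70, limma adjusted p = 0.0974). By day the difference was -1.15, -0.92, -1.34 and -0.06, none of them called. The effect at GD5.5 minus that at GD4.5 was 1.27 (SE 0.56, limma adjusted p = 0.633). Within slides GEN minus CON was negative on 2 of 2 slides at GD1.5, 2 of 2 at GD3.5, 3 of 3 at GD4.5 (-1.46 to -0.88) and 2 of 3 at GD5.5 (-0.69 to 0.74).

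Markers of gland epithelium were lower in the same GEN uteri. Of 8 listed gland genes 6 were matched to a probe, and all 6 had a negative average difference, with 5 called: Foxa2 (-1.40), Sox9 (-1.51), Ttr (-2.16), Wfdc3 (-1.52) and Prss29 (-3.57), while Prss28 was -3.49 (limma adjusted p = 0.115). Their summed level, in multiples of the array's 75th percentile, was 1.38 to 3.79 in GEN uteri and 5.72 to 108.3 in CON uteri at GD1.5, and 0.931 to 2.54 in GEN uteri and 5.99 to 13.5 in CON uteri at GD3.5. At GD4.5 it was 2.52 to 21.0 in GEN uteri and 21.9 to 128.4 in CON uteri, and at GD5.5 it was 26.2 to 93.1 in GEN uteri and 102.2 to 210.7 in CON uteri. Within each day all 6 were well above background on a CON array and 5 on a GEN array. The median level of the 6 genes (log2) was apart at GD3.5 and GD4.5, with CON uteri higher, but overlapped on the other days. At GD1.5 it was -2.765 to -1.051 in GEN uteri and -3.024 to 1.036 in CON uteri. At GD5.5 it was -2.473 to -0.899 in GEN uteri and -1.455 to -0.733 in CON uteri. The 12 genes of simple epithelium, keratins, claudins and Epcam among them, had 0 called on the average. Of them 11 were negative, with a median difference of -0.12. By day 9, 4, 11 and 5 of the 12 were negative from GD1.5 to GD5.5 (median -0.15, 0.09, -0.49 and 0.08). As deviations from the group means over the 29 arrays, r with the log2 gland sum was -0.168 for Clcn2, 0.185 for Atp6v1c2 and 0.371 for Fxyd3. With the log2 simple epithelium sum it was 0.694 for Clcn2, 0.073 for Atp6v1c2 and 0.40 for Fxyd3. What part the levels of the gland and simple epithelium genes have in the values of Clcn2, Atp6v1c2 and Fxyd3 was not tested.

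**Figure D2:**
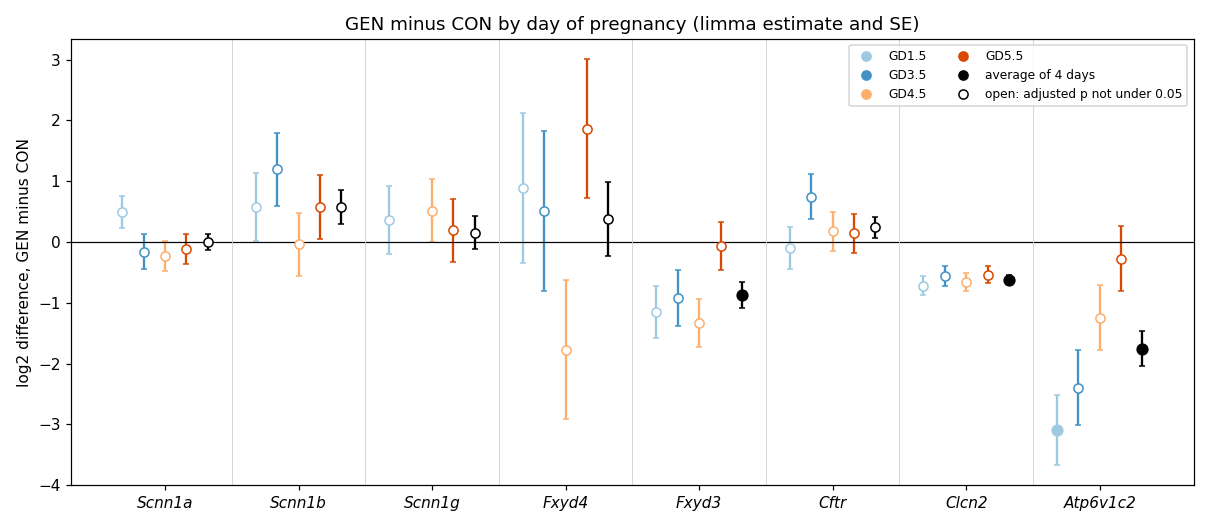
Difference between GEN and CON (log2) for each gene on each of the 4 days and averaged over them, as limma's estimate with its SE; filled points have an adjusted p under 0.05. Clcn2 lies between -0.72 and -0.54 on each day, Atp6v1c2 goes from -3.09 at GD1.5 to -0.27 at GD5.5, and Scnn1g was not tested at GD3.5.

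The sodium channel subunits gave 0 calls between GEN and CON on any day or on the average. Scnn1a (alpha subunit) differed by 0.49, -0.16, -0.23 and -0.11 from GD1.5 to GD5.5, and by -0.00 on the average (SE 0.13). Scnn1b (beta subunit) was -0.35, -0.28 and -0.24 in GEN uteri at GD3.5, against -1.79, -1.29 and -1.39 in CON uteri, so its arrays did not overlap that day, with a difference of 1.20 (SE 0.60, limma adjusted p = 0.901). Its average difference was 0.58 (SE 0.28, limma adjusted p = 0.498), and within slides GEN minus CON was positive on 2 of 2 slides at GD1.5, 2 of 2 at GD3.5, 2 of 3 at GD4.5 (-2.16 to 0.15) and 2 of 3 at GD5.5 (-0.019 to 1.14). Scnn1g (gamma subunit) was dim: at GD3.5 it was well above background on 0 of 3 GEN arrays and 2 of 3 CON arrays and was not tested, and its average difference was 0.15 (SE 0.27). A missed threshold here does not show that the exposures were alike. The second Scnn1a probe, also spliced (125369357 to 125369561 on chromosome 6, NCBI35, plus strand), was well above background on 2 arrays, both GEN at GD1.5, and is shown as the reason that the other probe stands for the gene.
Scnn1a second probe: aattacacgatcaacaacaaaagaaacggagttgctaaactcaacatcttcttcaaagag

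Per day, the 8 genes gave few calls between exposures. At GD3.5 none of 7 was called, against 0.127% of all genes, and 5 had arrays that did not overlap, against 20.3% of all genes. At GD4.5 none of 8 was called, against 0.12%, and 3 did not overlap, against 4.14%. At GD5.5 none of 8 was called, against 0% of all genes (of 20828 genes 1147 had an unadjusted p under 0.05), and 1, Clcn2, did not overlap, against 1.72%. At GD1.5 the 2 that did not overlap, Clcn2 and Atp6v1c2, compare with 8.33%. The difference of the genistein effect between GD3.5 and GD1.5 was called for none of the 8 and 0% of all genes, and between GD5.5 and GD4.5 for none of the 8 and 0.00443% of all genes.

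Cftr, the cyclic AMP gated chloride channel, fell steeply at GD3.5 relative to GD1.5 in both exposures. In GEN uteri its level was -4.03, -4.46 and -4.67 at GD3.5, against -0.74, -1.86, -1.17 and -1.32 at GD1.5. In CON uteri it was -5.24, -4.61 and -5.53 at GD3.5, against -1.02, -1.19 and -1.31 at GD1.5. Every GD3.5 array was below every GD1.5 array. The difference was -3.11 in GEN uteri (SE 0.35, limma adjusted p = 1.15e-05), 8.65-fold lower, and -3.95 in CON uteri (SE 0.37, limma adjusted p = 4.19e-06), 15.5-fold lower. Cftr was the only 1 of the 8 called in either exposure, where 2.5% of genes in GEN and 1.39% in CON were called lower, and 5.09% and 2.54% in either direction.

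The fall of Cftr was called without any 1 array of the groups compared. Within slides it was -3.64 to -2.17 on 3 slides in GEN uteri and -4.23 on the 1 slide with both days in CON uteri. Its size depended on the background correction and on the probe. With plain normexp it was -2.26 in both GEN and CON uteri (limma adjusted p = 8.44e-04 and 0.0028), and with the refitted normexp -2.44 in GEN uteri and -2.88 in CON uteri. With the mean over both probes it was -2.17 in GEN uteri and -2.65 in CON uteri. GEN and CON were not called apart in it: the effect at GD3.5 minus that at GD1.5 was 0.84 (SE 0.51, limma adjusted p = 1.00). At GD3.5 Cftr differed by 0.74 between GEN and CON (SE 0.37, limma adjusted p = 0.90), with overlapping arrays. At GD4.5 and GD5.5, on the other slides, its group means lay between -3.76 and -3.08. The second Cftr probe was well above background on 1 array, GEN 1 at GD1.5.

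Cell type genes also differed between these days. The summed level of 10 neutrophil genes was 8.09 to 35.8 in GEN uteri at GD3.5, against 127.4 to 279.3 at GD1.5, and 2.99 to 20.3 in CON uteri at GD3.5, against 118.0 to 188.0 at GD1.5. These sums did not overlap between the days in either exposure, but the median level of the list (log2) did. In GEN uteri the median was -5.753 to -1.659 at GD3.5, against -2.463 to 0.238 at GD1.5. In CON uteri it was -5.019 to -3.922 at GD3.5, against -5.997 to -1.15 at GD1.5. Of the tested neutrophil genes 2 of 9 were called lower in GEN and 1 of 7 in CON. Elane was not well above background on any of the 29 arrays. The sum of the 12 simple epithelium genes was 139.9 to 149.4 in GEN uteri at GD3.5, against 129.9 to 201.9 at GD1.5, and 121.6 to 148.2 in CON uteri at GD3.5, against 165.0 to 209.9 at GD1.5. These sums overlapped between the days in GEN and were apart in CON. The median level of the 12 (log2) was apart in both exposures, and lower at GD3.5. In GEN uteri it was 1.896 to 2.001 at GD3.5, against 2.427 to 3.365 at GD1.5. In CON uteri it was 1.937 to 2.231 at GD3.5, against 2.869 to 2.99 at GD1.5. Of the 12 genes 0 were called in either exposure (median difference -0.18 in GEN and -0.39 in CON). As deviations from the group means over the 29 arrays, Cftr had r = 0.66 with the log2 neutrophil sum and 0.75 with that of simple epithelium. The part of these cell types in the fall of Cftr was not tested.

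Scnn1a differed by -0.77 between GD3.5 and GD1.5 in GEN uteri without being called (SE 0.26, limma adjusted p = 0.097), and by -0.12 in CON uteri. Leaving out GEN 4 of GD4.5 from the fit, which shares only the error estimate, brought Scnn1a in GEN under the threshold (limma adjusted p = 0.0284) and Scnn1g as well (0.0439). Scnn1g was not well above background on any GEN array at GD3.5, where it differed by -1.63 from GEN uteri at GD1.5 (SE 0.55, limma adjusted p = 0.0917). The size of that difference depended on the background: it was -0.13 with plain normexp and -0.52 with the refitted normexp. Fxyd4 was 6.88, 6.85 and 6.87 in GEN uteri at GD3.5, against 5.28, 4.95, 5.70 and 5.95 at GD1.5, and 6.16, 6.68 and 6.24 in CON uteri at GD3.5, against 5.34, 4.01 and 4.41 at GD1.5. Its arrays did not overlap in either exposure, yet with 1 error estimate over all 8 groups the differences of 1.39 and 1.78 were not called (limma adjusted p = 0.614 and 0.642). With only the arrays of the 2 groups the GEN difference was called (limma adjusted p = 0.0218). Of the 8 genes 4 did not overlap in GEN, against 28.4% of all genes, and 5 in CON, against 23%.

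Fxyd4, known in kidney as a partner of the sodium pump that raises its affinity for sodium, was lower by the widest margin of the 8 at GD5.5 relative to GD4.5. In CON uteri its level was -3.64, -3.72, -1.63 and -4.12 at GD5.5, against 3.15, 0.72, 6.04 and 3.42 at GD4.5. In GEN uteri it was -1.96, 0.22, 0.08 and -4.02 at GD5.5, against 0.42, -1.75, 2.02 and 5.54 at GD4.5. The CON days were fully apart and the GEN days overlapped. The difference was -6.61 in CON uteri (SE 1.14, limma adjusted p = 1.83e-04), 97.97-fold lower, and negative on 4 of 4 slides (-9.77 to -4.36). Its size moved with single arrays and with the background: it was -7.49 without CON 2 of GD4.5, -5.71 without CON 3 of GD4.5, and -5.70 with either normexp correction, and it was called in each of these. In GEN uteri it was -2.98 (SE 1.14, limma adjusted p = 0.063), and -6.05 and 1.97 on the 2 slides with both days.

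The GEN and CON changes of Fxyd4 were not called apart: the effect at GD5.5 minus that at GD4.5 was 3.64 (SE 1.62, limma adjusted p = 0.641). In GEN uteri the call turned on single arrays, being gained without GEN 2 of GD4.5 (-4.08, limma adjusted p = 0.00935), without GEN 2 or GEN 3 of GD5.5 (0.048 and 0.0393), and without CON 2 or CON 3 of GD4.5 (0.0485 and 0.0497). With slide as a block it was -1.93 (limma adjusted p = 0.411). Without both GEN 4 and CON 2 of GD4.5, chosen after their Fxyd4 values had been seen, the difference between GEN and CON at GD4.5 was -3.97 (limma adjusted p = 0.0473), against -1.77 (0.679) with all arrays. The SD of Fxyd4 was 3.07 and 2.18 in GEN and CON uteri at GD4.5, and 0.02 and 0.28 at GD3.5.

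**Figure D3:**
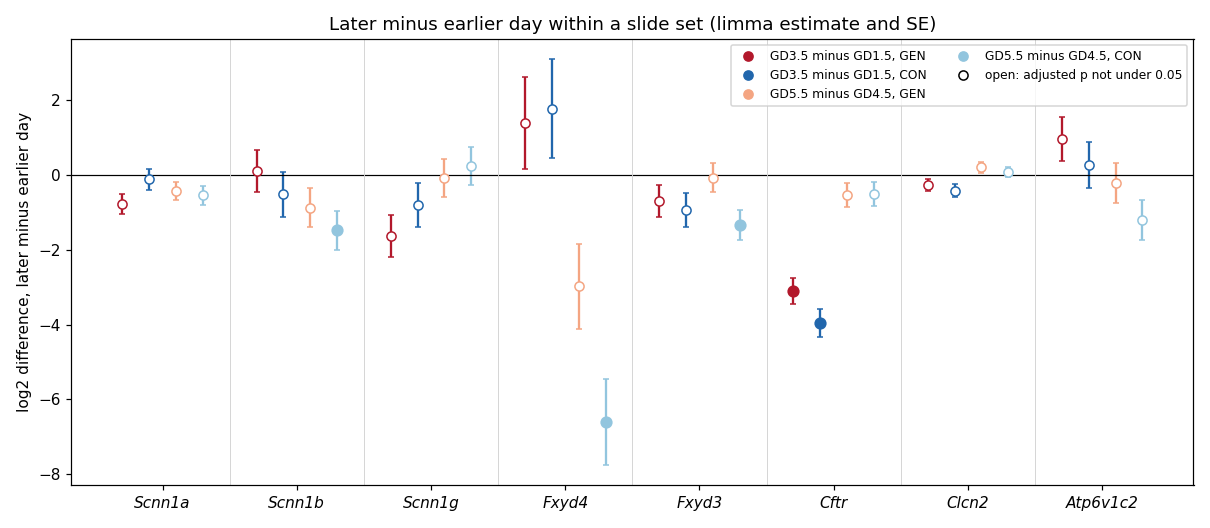
Difference between the later and the earlier day of each slide set (log2, limma's estimate with SE), in GEN and CON uteri; filled points have an adjusted p under 0.05. Cftr is lower at GD3.5 in both exposures, and Fxyd4, Fxyd3 and Scnn1b are lower at GD5.5 in CON.

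Fxyd3 and Scnn1b were also lower at GD5.5 than at GD4.5 in CON uteri. Fxyd3 differed by -1.34 (SE 0.40, limma adjusted p = 0.0126), with no overlap and on 4 of 4 slides (-2.03 to -0.78), and by -0.07 in GEN uteri. Scnn1b was -4.16, -3.75, -3.47 and -3.63 at GD5.5 in CON uteri, against -1.80, -3.46, -1.09 and -2.72 at GD4.5, a difference of -1.49 (SE 0.52, limma adjusted p = 0.033). The lowest GD4.5 array lay just above the highest GD5.5 array, and the call was lost without CON 1 or CON 3 of GD4.5 (limma adjusted p = 0.0931 and 0.142) or CON 1 or CON 2 of GD5.5 (0.091 and 0.0606). It was also lost with plain normexp (-0.96, limma adjusted p = 0.106), with the refitted normexp (-0.96, 0.068) and with only the compared arrays (0.0606). In GEN uteri Scnn1b differed by -0.88 (limma adjusted p = 0.229). In CON 3 of the 8 genes were called lower, where 14.4% of all genes were called lower and 30.9% in either direction, and 4 did not overlap, against 27.2%. In GEN 0 were called, where 22.4% of all genes were called, and 0 did not overlap, against 14.3%.

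Genes of simple epithelium moved in the same comparison, as did those of other cell types. All 12 simple epithelium genes were negative at GD5.5 relative to GD4.5 in both exposures, with 6 called lower in GEN (median -0.88) and 8 in CON (median -1.53). So were all 8 macrophage genes, with 2 called lower in GEN (median -0.70) and 7 in CON (median -1.31). Of 10 smooth muscle genes 2 were called lower and 1 higher in GEN, and 7 lower and 1 higher in CON. Of 8 stroma genes 1 was called lower and 1 higher in GEN, and 2 lower and 4 higher in CON. The summed level of the 12 simple epithelium genes in GEN uteri was 64.9 to 108.4 at GD5.5, against 59.4 to 260.4 at GD4.5. In CON uteri it was 73.0 to 97.6 at GD5.5, against 127.0 to 230.4 at GD4.5. Among the 4 GEN arrays at GD4.5 the summed level was 98.2, 59.4, 150.1 and 260.4 for replicates 1 to 4, and among the 4 CON arrays 152.9, 127.0, 230.4 and 170.7. In both groups the order of the arrays by that sum was the order by Fxyd4, and in the GEN group it was also the order by Scnn1b, Cftr and Clcn2. Over the 8 groups Fxyd4 had the order of the sum in 3, the third being CON at GD1.5, Cftr in 2 and each of the others in 1 or 0. Over the 29 arrays, as deviations from the group means, Fxyd4 and the log2 sum of the 12 genes had r = 0.82. The same r was 0.75 for Cftr, 0.69 for Clcn2, 0.64 for Scnn1a and 0.54 for Scnn1b. Fxyd3 had 0.40, Scnn1g 0.28 and Atp6v1c2 0.07. Among the cell type lists, Fxyd4, Cftr, Clcn2, Scnn1a and Fxyd3 had their highest r with simple epithelium. Scnn1b was highest with stratified epithelium (0.69), Scnn1g with macrophage genes (0.60) and Atp6v1c2 with adipocyte genes (0.44). Fxyd4 also had 0.65 with ciliated and oviduct epithelium and 0.61 with neutrophil genes. With gland epithelium r was negative for Fxyd4 (-0.59), Scnn1a (-0.58), Scnn1b (-0.49) and Cftr (-0.45), and 0.29 for Scnn1g. Other cell types also varied at GD4.5: the summed level of adipocyte genes was 139.2 on GEN 2 and 1.91 to 13.1 on the other GEN arrays, against 1.98 to 25.3 on CON arrays. That of neutrophil genes was 120.8 on GEN 4 and 2.0 to 6.53 on the other GEN arrays, against 8.28 to 35.9 on CON arrays. The arrays share slides and their scaling, and the part of these cell type sums in the results was not tested.

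**Figure D4:**
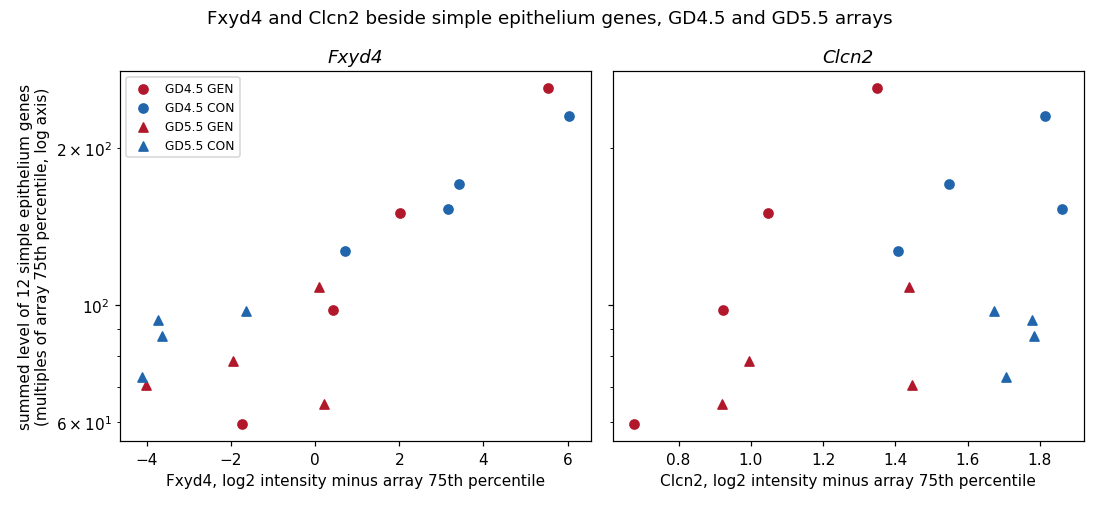
Level of Fxyd4 (left panel) and Clcn2 (right panel) on the horizontal axis (log2 intensity minus the array's 75th percentile), with the summed level of 12 simple epithelium genes on the vertical axis (log scale, multiples of the 75th percentile), on the 16 arrays of GD4.5 (circles) and GD5.5 (triangles), GEN in red and CON in blue. The GD4.5 circles of Fxyd4 rise with the sum in each exposure, while in the Clcn2 panel the GEN points have lower Clcn2 levels than the CON points of the same day and their sums overlap.

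Across the 8 groups the genes differed in their order of levels. Fxyd4 ran from 6.87 in GEN at GD3.5 to -3.28 in CON at GD5.5, Scnn1b from -0.29 in GEN at GD3.5 to -3.75 in CON at GD5.5, and Scnn1a from 0.16 in GEN at GD1.5 to -2.01 in GEN at GD5.5. Each of the 3 stood highest on the earlier slides. Cftr ran from -1.17 in CON at GD1.5 to -5.13 in CON at GD3.5, and Scnn1g from -4.35 in GEN at GD4.5 to -7.34 in GEN at GD3.5. Fxyd3 ran from 0.02 in CON at GD4.5 to -2.32 in GEN at GD3.5, and no 2 neighbours in its order were free of overlap. Clcn2 spanned the least, from 1.97 in CON at GD1.5 to 0.99 in GEN at GD3.5, with the 4 CON groups above the 4 GEN groups. Atp6v1c2 ran from -4.10 in CON at GD3.5 to -7.46 in GEN at GD1.5, and likewise had its 4 CON groups above its 4 GEN groups. Neighbours whose arrays did not overlap were few: both steps from GEN at GD3.5 through CON at GD3.5 to GEN at GD1.5 for Fxyd4, and 1 step each for Scnn1a, Scnn1b, Cftr, Clcn2 and Atp6v1c2. Levels across the 2 slide sets carry the slides with them.

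Other genes of these transport systems, 119 in 5 lists (sodium channel regulators, Na,K-ATPase and FXYD genes, anion channels and exchangers, potassium channels, V-ATPase subunits), gave 0 calls between GEN and CON on each day and on the average, with 106 to 114 tested. Car12, a carbonic anhydrase, differed by -0.97 on the average (SE 0.24, limma adjusted p = 0.0561). At GD3.5 relative to GD1.5, 3 rose and 8 fell of 106 in GEN (10.4%), and 0 rose and 7 fell of 108 in CON (6.48%). Over all genes 2.59% rose and 2.5% fell in GEN, and 1.15% rose and 1.39% fell in CON. Slc26a9, an anion transporter of epithelia, changed by -3.64 in GEN and -3.95 in CON. The membrane protease Tmprss4 changed by -2.20 in GEN and -2.11 in CON, and the anoctamin Ano9 by -1.75 and -2.10. The potassium channel Kcnq1 changed by -1.67 in GEN and -1.71 in CON, and the calcium-gated potassium channel Kcnn4 by -1.38 and -1.80. Fxyd2, the sodium pump's gamma subunit, changed by -1.11 in GEN, and Atp12a, a proton and potassium pump, by -1.51 in CON. With 1 compared array left out, the Tmprss4 call held in 4 of 7 fits in GEN and 0 of 6 in CON. That of Kcnn4 held in 3 of 7 and 4 of 6, Fxyd2 in 1 of 7 and Atp12a in 1 of 6. Ano9 held in 6 of 7 and 6 of 6, and Slc26a9 and Kcnq1 in every such fit. Slc26a9 was well above background on 1 of 3 GEN and 2 of 3 CON arrays at GD3.5. Of the potassium channels 2 of 11 fell in GEN and 2 of 12 in CON, and the list's median was -0.59 and -0.54, against 0.01 and 0.02 over all genes.

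At GD5.5 relative to GD4.5, 9 of these genes rose and 13 fell of 112 in GEN (19.6%), and 12 rose and 28 fell of 114 in CON (35.1%), shares near the 22.4% and 30.9% of all genes. Over all genes 13.2% rose and 9.21% fell in GEN, and 16.5% rose and 14.4% fell in CON. Wnk4, a kinase that regulates sodium and chloride transport, rose by 1.65 in GEN and by 1.83 in CON. Ano1, a calcium-gated chloride channel, rose by 1.88 in CON. The membrane protease Tmprss2 changed by -1.36 in GEN and -2.11 in CON. In GEN the anion exchanger Slc26a7 changed by -1.63, the potassium channel subunit Kcne4 by -1.44 and the potassium channel Kcnk1 by -1.41. In CON the membrane protease St14 changed by -1.67 and Car12 by -1.57. With 1 compared array left out, the Tmprss2 call held in 5 of 8 fits in GEN, and the other calls named here in 8 of 8. Of the V-ATPase list 1 rose and 2 fell of 24 in GEN, and 1 rose and 3 fell in CON.

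Genes with the most similar pattern over the 29 arrays were found after centring each slide set, among 15481 genes, as a description. Cftr went most closely with Igsf9 (r = 0.945), Kcnq1 (0.922) and Fer1l4 (0.908). Fxyd4 went with Ctsd (0.943) and Calb1 (0.943). Scnn1b went with Mrvi1 (0.919), Tmod1 (0.886) and Tmem200a (0.886), and Fxyd3 with Car12 (0.899), Tmem176a (0.868) and Cldn10 (0.858). Atp6v1c2 went with Rptoros (0.877), Sidt1 (0.839) and Mia (0.823), Scnn1a with Noxa1 (0.826) and Gstm7 (0.812), Clcn2 with Tshr (0.80), Pyroxd1 (0.786) and Mgam (0.784), and Scnn1g with Ctsl (0.777), Grk3 (0.761) and Itgb5 (0.76). Among the 8 themselves, Fxyd4 and Scnn1b had r = 0.889 over the 16 arrays of GD4.5 and GD5.5 and 0.01 over the 13 of GD1.5 and GD3.5, Fxyd3 and Clcn2 had 0.413 and 0.849, and Clcn2 and Atp6v1c2 had 0.465 and 0.731.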

How the data were processed

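The members and all gene lists were chosen with earlier results of these data known. Spot intensity in a single colour (gProcessedSignal, per the file headers) comes from the authors' scanner files, as written by Agilent Feature Extraction, version 9.5 per the submitters' processing notes, from 500 ng of total RNA per the labels' protocols. The authors' value table for the series did not depart from these intensities (largest gap 0%). Here log2 was taken of the deposited intensity, scaled to the upper quartile of the 43379 spots that are not controls. Spots marked as non-uniform or population outliers were left out (34 to 149 per array), and spots of a probe averaged. Where a gene had several probes the brightest stood for it (8914 of 27670 names). Names came from RefSeq by accession (22951 probes), symbol (6659) or synonym (3109), otherwise from the scanner file (8455).

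Group means of all 29 arrays were fitted with limma 3.58.1 (R 4.3.3, statmod 1.5.0, data.table version 1.17.8), with moderation and Benjamini-Hochberg adjustment per comparison over genes that at least 3 of the arrays compared put well above background. Exposure, day and replicate number came from the titles. Tables and figures used Python 3.11.15, numpy 2.4.6, pandas 2.3.3 and matplotlib 3.10.9. The fit was tested on simulated data for GEN against CON at GD4.5 (20003 genes). There 54% of 50 genes changed by a log2 of 1 and 88% of 50 changed by 2 were called. Of 174 calls 5 were false. Each simulated gene had the same SD in all groups and noise independent between arrays. Shared slides and spreads that differ between groups, as for Fxyd4, were not simulated, so these shares may not hold for the real arrays.

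Arrays lay on 8 slides. GD3.5 CON 3 lay alone on a slide scanned separately. Equal replicate numbers of GEN and CON correlated in their deviations from the group means at r = 0.331 to 0.426 at GD5.5. On the other days r was -0.26 to 0.49, the highest being replicate 2 of GD4.5. No label says that equal numbers mark pairs, and they were taken as pairs at GD5.5 from the correlation alone. GEN and CON arrays numbered 1, 2 and 4 of GD5.5 also shared slides, so pairing and slide cannot be told apart there. Alternatives were normexp with offset 50, quantile or median scaling, a filter on all 29 arrays, probe means, slide and replicate blocks, arrays of the compared groups only, a variance trend, and each array left out. Added after seeing the data were normexp refitted without spots of high local background, and a fit without GEN 4 and CON 2 of GD4.5. Named were all 8 genes, up to 6 called list genes per comparison by size, and the 3 most similar genes of each member; some genes this rule names are not reported here. The number of arrays limits the precision.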

Additional observations from a re-analysis of the deposited data

Results flagged for a closer look

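Scnn1g at GD5.5 in CON uteri had 1 array apart from the others: replicate 1 was at -5.25, while the other 3 lay between -4.41 and -4.39 (log2 intensity minus the 75th percentile). Its gap was 0.979 of the group's range, above the critical 0.829 for 4 arrays. Of 40 gene and group combinations of 4 arrays tested this was the 1 that passed, where chance passes about 1 in 20 groups.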

How the results depend on the processing

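Of 3554 values of the 8 genes under alternatives, 3383 kept direction and side of the threshold, 42 lost the call, 36 gained it and 93, of 33 results, changed sign; none of those 33 was called with all arrays, and the largest was 0.875 in size. Of 969 values of list genes, 872 were kept, 96 lost the call and 1 changed sign. Causes were not tested, except that plain normexp raised the low end of several arrays.

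The number of the 8 called between GEN and CON at GD1.5, 1 in the report, was 0 with plain normexp, with quantile scaling, with only genes well above background on all 29 arrays, with a replicate block within each day and with only the compared arrays, and 2 with median scaling or a replicate block over all days; leaving out 1 array gave 0 to 2. At GD3.5 it was 0, and 1 with the refitted normexp; leaving out 1 array gave 0 to 1. At GD4.5 it was 0, and 1 with the 29-array filter, slide as a random block, a replicate block over all days or a variance trend. It was 2 without GEN 4 and CON 2, a pair chosen after their Fxyd4 values were seen, which supports nothing; leaving out 1 array gave 0 to 1. At GD5.5 it was 0, and 5 with plain normexp; leaving out 1 array gave 0 to 1. On the average it was 3, and 1 with plain normexp. It was 2 with the 29-array filter, which leaves Atp6v1c2 out, and, without Fxyd3, with slide as a fixed block (limma adjusted p = 0.0662), with a replicate block within each day (0.155) and without GEN 4 and CON 2 of GD4.5 (0.0674); leaving out 1 array gave 2 in 21 fits and 3 in 8. Between GD3.5 and GD1.5 in GEN it was 1, and 4 with only the compared arrays; leaving out 1 array gave 1 to 3. Between GD5.5 and GD4.5 in GEN it was 0, and 3 with plain normexp; leaving out 1 array gave 0 to 1. In CON it was 3, 2 with either normexp, and 4 with quantile scaling or without GEN 4 and CON 2; leaving out 1 array gave 2 to 4. Between GD3.5 and GD1.5 in CON it was 1 in each fit.

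With plain normexp, these differences changed sign. Between GD5.5 and GD4.5 in GEN, Scnn1g was 1.16, Atp6v1c2 1.45, Cftr 0.64, Fxyd3 0.22, Scnn1b 0.18, Scnn1a 0.15 and Slc26a7 0.18. Between GEN and CON, Atp6v1c2 was 1.31, Scnn1a 0.36 and Fxyd3 0.23 at GD5.5, Cftr -0.082 at GD3.5, Scnn1g -0.082 at GD1.5 and Scnn1a 0.11 on the average. Scnn1g was 0.28 between GD3.5 and GD1.5 in CON. In the genistein effect at GD5.5 minus GD4.5, Scnn1g was 0.97 and Cftr 0.88, and at GD3.5 minus GD1.5, Atp6v1c2 was -0.16 and Cftr -0.0037. With refitted normexp Atp6v1c2 was 0.078 and Scnn1g 0.072 between GD5.5 and GD4.5 in GEN, Atp6v1c2 -0.13 in the effect at GD3.5 minus GD1.5, and Scnn1a 0.0047 on the average.

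With the mean over a gene's probes, Scnn1a was 0.064 between GEN and CON at GD4.5, 0.071 on the average, 0.10 between GD3.5 and GD1.5 in CON, 0.063 between GD5.5 and GD4.5 in CON and -0.41 in the effect at GD5.5 minus GD4.5. Cftr was then -0.12 between GEN and CON at GD4.5, 0.10 between GD5.5 and GD4.5 in GEN and 0.46 in the effect at GD5.5 minus GD4.5. With slide as a fixed block, Scnn1g was 0.16 and Atp6v1c2 0.10 between GD5.5 and GD4.5 in GEN, Cftr 0.17 in the effect at GD5.5 minus GD4.5 and Atp6v1c2 -0.58 between GD3.5 and GD1.5 in CON. Without GEN 4 and CON 2 of GD4.5, Fxyd4 was -0.18 on the average, Scnn1g -0.025 and Cftr -0.38 between GEN and CON at GD4.5, Scnn1g 0.45 and Clcn2 -0.0048 between GD5.5 and GD4.5 in GEN and CON, and Cftr 0.53 and Scnn1g 0.21 in the effect at GD5.5 minus GD4.5. Quantile scaling gave Scnn1a 0.0029 on the average and Clcn2 -0.010 between GD5.5 and GD4.5 in CON, and median scaling Scnn1b 0.037 between GEN and CON at GD4.5. A replicate block within each day gave Scnn1a 0.0066 and Scnn1g -0.0041 on the average.

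Leaving out 1 array, uncalled differences between GEN and CON ran across 0 for Fxyd3 at GD5.5 (-0.35 to 0.13), Scnn1b at GD4.5 (-0.61 to 0.36), Scnn1g at GD1.5 (-0.26 to 0.76), GD4.5 (-0.015 to 0.88), GD5.5 (-0.14 to 0.47) and on the average (-0.0034 to 0.28), Cftr at GD1.5 (-0.28 to 0.098), GD4.5 (-0.24 to 0.42) and GD5.5 (-0.051 to 0.24), and Scnn1a on the average (-0.078 to 0.059). Between days they did so for Fxyd3 (-0.36 to 0.12) and Scnn1g (-0.44 to 0.45) at GD5.5 in GEN, Clcn2 at GD5.5 in CON (-0.0048 to 0.15), Scnn1a at GD3.5 in CON (-0.40 to 0.13) and Scnn1b at GD3.5 in GEN (-0.14 to 0.37). In the effect differences they did so for Fxyd3 at GD3.5 (-0.34 to 0.55), and at GD5.5 for Scnn1a (-0.052 to 0.42), Scnn1g (-0.69 to 0.21) and Cftr (-0.27 to 0.38).

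Over all genes the counts called ranged, with other settings than leaving out 1 array, from 1 to 34 at GD1.5 (20 in the report), 7 to 53 at GD3.5 (26), 4 to 256 at GD4.5 (26), 0 to 9821 at GD5.5 (0) and 135 to 308 on the average (243). They ranged from 513 to 1655 in GEN (1039) and 121 to 702 in CON (523) at GD3.5 relative to GD1.5, and from 0 to 11817 in GEN (4692) and 4561 to 8028 in CON (6706) at GD5.5 relative to GD4.5. The counts 256, 308 and 8028 came without GEN 4 and CON 2 of GD4.5, the pair chosen after their Fxyd4 values were seen. Plain normexp gave 9821 and 11817, and also the low counts 7, 135, 513 and 4561. The refitted normexp gave 34, 53 and 702. No label says that equal replicate numbers mark pairs. At GD5.5, where they were taken as pairs from their correlation, the block changed no call of the 8 genes. On the other days they were taken to share only a number. A replicate block within each day left Atp6v1c2 at GD1.5 (-3.60, limma adjusted p = 0.0543) and Fxyd3 on the average (-0.97, 0.155) uncalled, and 1 over all days called Clcn2 at GD1.5 (-0.76, 0.0209) and GD4.5 (-0.66, 0.0297). Dim probes limit Scnn1g and Atp6v1c2.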
